A study of Mus musculus with 10 samples.

Results

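The genes of the mitochondrial ribosomal proteins were followed in testis RNA from wild-type and FXR-/- mice. They were chosen by name: every protein-coding row of the deposited gene table whose symbol starts with Mrpl or Mrps and a digit was taken. This gave 77 genes of 30719 in the table, 48 with a large-subunit name (Mrpl) and 29 with a small-subunit name (Mrps). Another 4 rows with such names were pseudogenes and were left out. The rule reads names and gene types only.

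The mice were 5 WT and 5 FXR-/- animals at postnatal day 10, all of a mixed 129sv and C57Bl background, with 1 library per mouse from total RNA of the testis and all libraries on 1 flowcell. FXR, the farnesoid X receptor, is a nuclear receptor for bile acids encoded by Nr1h4. The knockout is described by its genotype only: the labels give neither the deleted part of the gene nor a cell type in which it was deleted, and no treatment was named. The comparison asks which testicular transcripts differ in mice without the receptor.

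Mitochondrial ribosomes translate the few proteins that mitochondrial DNA encodes, all of them parts of the respiratory chain and ATP synthase. Their ribosomal RNAs come from mitochondrial DNA, whereas every one of their proteins is encoded in the nucleus, made in the cytosol and imported. Some of these proteins have bacterial counterparts that surround the decoding centre, the peptidyl transferase centre and the exit tunnel, and others exist only in mitochondria and cover the outside of the particle. In the testis, spermatogonia, Sertoli cells and the later germ cells differ in how they use mitochondria.

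Libraries held 32330029 to 39655170 counts. CPM below are counts scaled to a common library size after TMM scaling, which corrects for differences in composition between libraries, and every log2 fold change is FXR-/- over WT. The members together took 0.256 to 0.276% of counts in WT and 0.270 to 0.279% in FXR-/- libraries. Nr1h4 itself was near the detection limit, at 0.499 ± 0.160 CPM in WT and 0.276 ± 0.0390 in FXR-/- (SD, n = 5 each; log2 fold change -0.84, edgeR adjusted p = 0.0347, lost in 10 of 18 alternative settings of the processing). Markers of some other cells moved with genotype, where 13.9% of all tested genes were called. Of the duct epithelium markers, 7 of 7 were called higher (summed level 61.7 to 80.8 CPM in WT, 109 to 161 in FXR-/-), as were 7 of 8 tested adipocyte markers (47.9 to 191 against 198 to 1230 CPM). Of 10 Sertoli cell markers, 6 were called lower and 1 higher (3796 to 4676 against 2579 to 3784 CPM), and none of 9 meiotic markers was called (521 to 1227 against 794 to 1372 CPM). Of the germ cell lists, 1 of 6 general markers and 2 of 5 markers of differentiating spermatogonia were called higher, and 0 of 6 markers of undifferentiated spermatogonia were called. None of the 5 markers each of peritubular muscle, endothelium and macrophages was called. Of Leydig cell markers 1 of 6 was called lower, of skeletal muscle markers 1 of 4 tested lower, and of erythroid markers 1 of 5 higher. No marker of any list was at 0 in any library. The part of these cells in the results below was not tested, and in whole-tissue RNA fewer cells of a type and less RNA per cell cannot be told apart.

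Of the 77 members, all of which passed the filter on low counts, 7 (9.09%) were called at an adjusted p under 0.05 by edgeR's quasi-likelihood test, adjusted over 18559 genes. Over all tested genes the share was 13.9%, and over the 8100 tested genes with a mean of 10 to 100 CPM, the range of most members, it was 14.0%. The members' share lay below that of the background, and nothing particular to the list is read from it. Mrps35, Mrps22 and Mrpl47 rose. Mrps12, Mrps23, Mrps27 and Mrpl36 fell. The largest called change was the fall of Mrps12, 1.42-fold, and the other 6 were between 1.12-fold and 1.21-fold. Calls of higher level made up 6.17% of all tested genes and calls of lower level 7.71%.

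As a body, the 77 genes stayed close to their wild-type level. Their median log2 fold change was 0.014, as was the median of all tested genes (0.014), with 45 members above 0 and 32 below. The median size of their differences, whatever the sign, was 0.074 on the log2 scale, against 0.13 over all tested genes. For 71 members the whole 95% interval of the fold change lay within 1.25-fold either way, so that larger differences lie outside the intervals of these genes; 44.9% of all tested genes and 67.3% of those at 10 to 100 CPM met the same limit. The 6 members outside it were Mrps12, Mrps23, Mrpl36, Mrpl34, Mrps34 and Mrpl53. The members' median biological coefficient of variation between mice was 0.0668, against 0.102 over all tested genes, whose median level was lower (19.3 against 34.2 CPM). It was 0.0569 in mitochondrial import genes, 0.0624 in mitochondrial ribosomal proteins with other names and 0.0774 in assembly genes. The low variation is thus not particular to the members. In 9 members the CPM of the genotypes did not overlap, while 11.6% of all tested genes had no overlap.

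**Figure D1:**
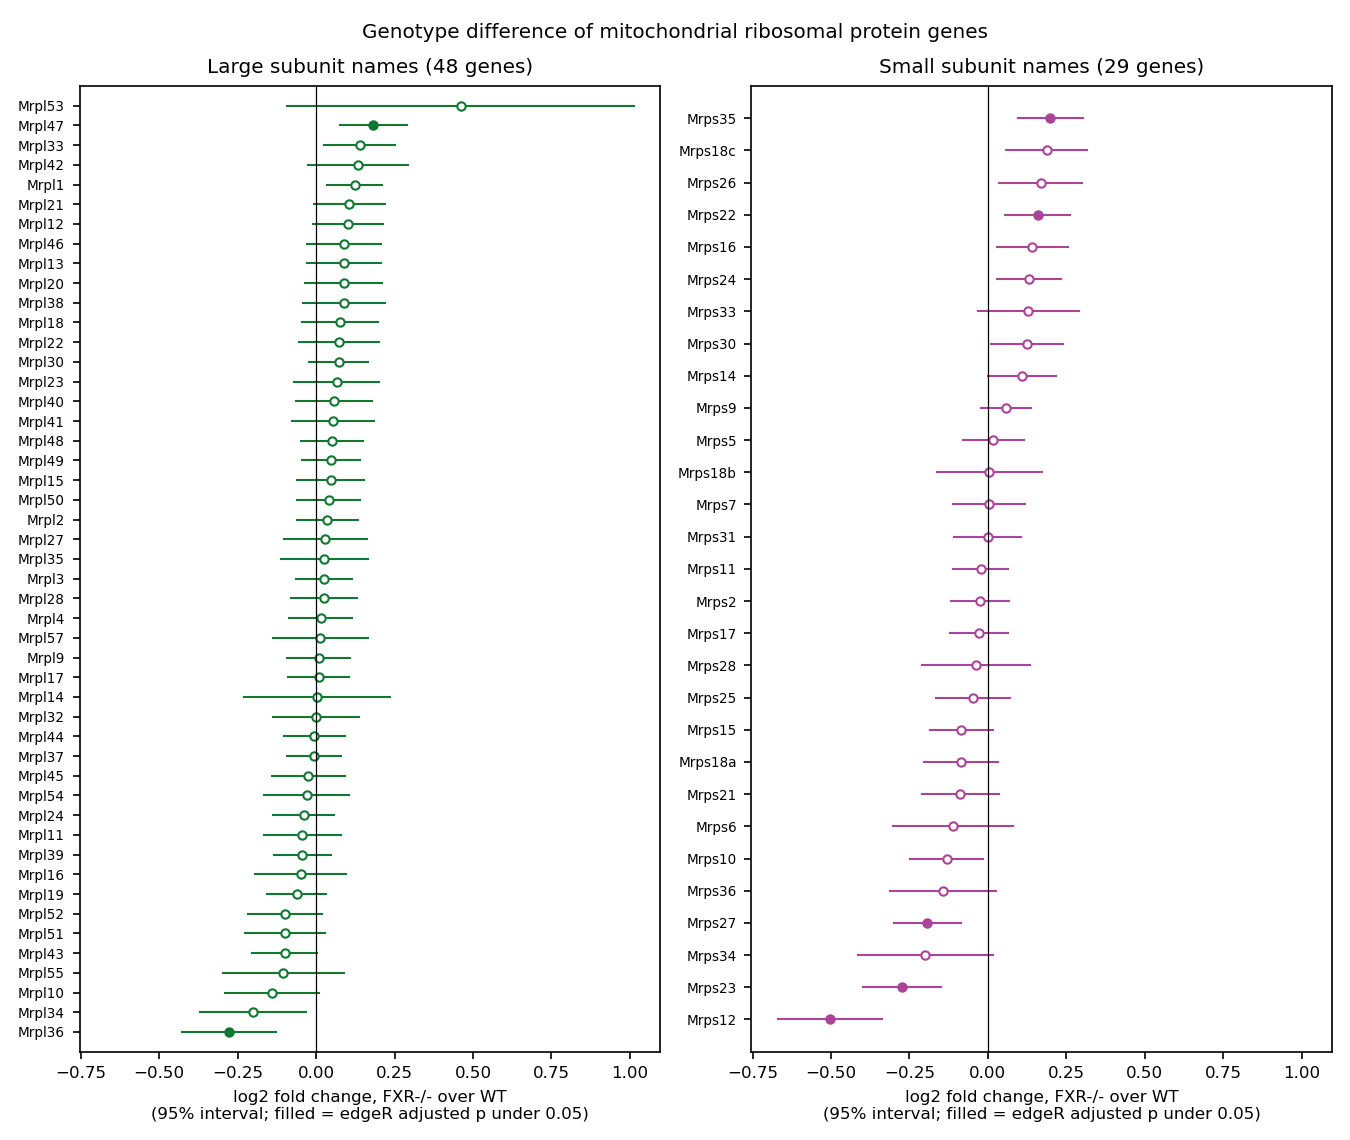
Log2 fold change (FXR-/- over WT) of each of the 77 members with its 95% interval, large-subunit names on the left and small-subunit names on the right; filled points passed edgeR's test at an adjusted p under 0.05. Most intervals cross 0, and Mrps12 lies farthest below 0 at -0.50.

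Among the small-subunit genes, Mrps12 showed the largest change. It encodes uS12m, the counterpart of bacterial S12 at the decoding centre. The gene lies on chromosome 7 (28739641 to 28741820, minus strand, GRCm38), head to head with Sars2, the mitochondrial seryl-tRNA synthetase, with the annotated starts 172 bases apart. WT libraries 3, 4, 5, 6 and 9 held 20.9, 19.9, 19.9, 24.0 and 21.6 CPM, and FXR-/- libraries 8 to 12 held 17.2, 14.7, 15.3, 13.9 and 14.0 CPM. All FXR-/- libraries were below all WT libraries, with a clear gap between the groups. The mean fell from 21.3 ± 1.67 to 15.01 ± 1.35 CPM (SD, n = 5 each), a log2 fold change of -0.50 (SE 0.08, 95% interval -0.67 to -0.34, edgeR adjusted p = 0.0019).

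Sars2 did not pass the test and had values in the other direction, 26.7 ± 1.72 CPM in WT and 30.2 ± 2.50 in FXR-/- (log2 fold change 0.18, edgeR adjusted p = 0.099). The difference between the genes was put to a test through the ratio of their counts within each library, which no scaling can change. Mrps12 over Sars2 was 0.803, 0.738, 0.822, 0.836 and 0.780 in WT and 0.514, 0.455, 0.547, 0.478 and 0.492 in FXR-/-. Every FXR-/- ratio was well below every WT ratio, with means of 0.796 ± 0.0386 and 0.497 ± 0.0353 (SD, n = 5 each) and a log2 difference of -0.68. The exact two-sided permutation test gave p = 0.00794, the smallest that 252 assignments allow (adjusted over the 4 pairs compared, 0.0106). Pairs entered because the ribosomal gene had passed, so the p-values are not independent of that call.

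The interval between Mrps12 and Sars2 is short enough to print whole. It is shown because the genes on its sides behaved differently. RefSeq, whose starts for the pair lie 147 bases apart, gives this sequence for chr7:28741822-28741997 on the minus strand (GRCm38.p6), read toward Mrps12 and reaching 30 bases past the start of Sars2. Capitals mark CCAAT, the motif of the factor NF-Y.
Mrps12: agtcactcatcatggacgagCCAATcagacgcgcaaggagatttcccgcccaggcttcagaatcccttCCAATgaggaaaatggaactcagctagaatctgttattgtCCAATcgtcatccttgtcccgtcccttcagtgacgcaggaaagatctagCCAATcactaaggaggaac
The window holds 4 CCAAT, all in the direction of Mrps12, at 19, 68, 108 and 156 bases before its start. The match at 156 lies past the RefSeq start of Sars2, which is 147 bases away. With the annotated starts given first, 172 bases apart, it lies between the genes. Of the 68 members with a RefSeq promoter entry, 1, Mrps12, had at least 4 matches on either strand within 250 bases, and 0.977% of 27025 promoters did. At least 1 CCAAT was in 36.8% of the members' promoters and 37.5% of all. The search for CCAAT was added after the sequence had been read, and a match is a description of the letters, not of binding.

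**Figure D2:**
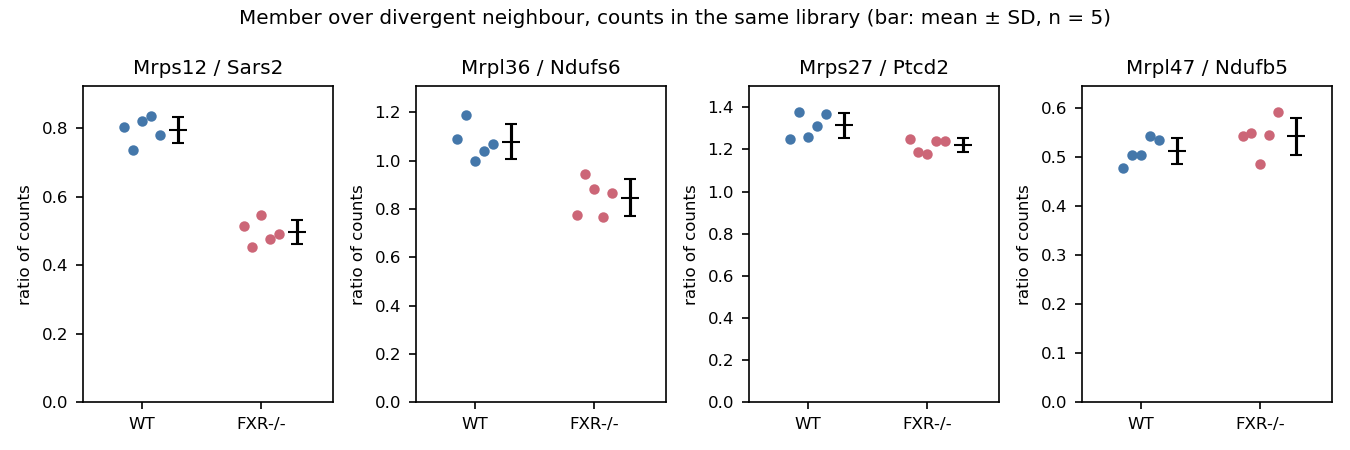
Ratio of the counts of a called member to those of its head-to-head neighbour, by genotype; each point is 1 library and the bar is the mean ± SD (n = 5). Mrps12 over Sars2 fell from 0.796 to 0.497 with a gap between the groups, and Mrpl47 over Ndufb5 overlapped.

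Mrps23, a small-subunit protein without a counterpart in bacteria, was the other member with a lower level at an adjusted p under 0.01. Its gene is on chromosome 11 (88204388 to 88211507, plus strand). WT libraries held 37.3, 40.3, 42.7, 42.8 and 44.6 CPM and FXR-/- libraries 31.6, 34.3, 36.3, 34.1 and 35.4 CPM. The groups did not overlap, although WT library 3 and FXR-/- library 10 were close. The mean fell 1.21-fold, from 41.5 ± 2.82 to 34.4 ± 1.76 CPM (log2 fold change -0.27, SE 0.06, edgeR adjusted p = 0.00971). Calls of Mrps12 and Mrps23 held in all 18 alternative settings, with Mrps12 between -0.56 and -0.46 and Mrps23 between -0.31 and -0.24 on the log2 scale.

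Mrps27, a pentatricopeptide repeat protein of the small subunit, also fell. It starts on chromosome 13 (99344786 to 99415562, plus strand), 81 bases from the start of Ptcd2, another pentatricopeptide repeat gene, which acts on mitochondrial RNA. WT libraries held 28.3, 29.6, 27.6, 28.1 and 29.2 CPM and FXR-/- libraries 26.7, 24.5, 23.9, 25.8 and 24.0 CPM. The FXR-/- libraries were all lower, the nearest of them by less than 1 CPM. The means were 28.6 ± 0.805 and 24.98 ± 1.23 CPM (log2 fold change -0.19, SE 0.05, edgeR adjusted p = 0.0239). Without WT library 4 or 9, or FXR-/- library 9 or 12, the call was lost (adjusted p = 0.063, 0.053, 0.051 and 0.0592). It was also lost with library totals alone (0.0631), without a filter on low counts (0.0523) and without FXR-/- libraries 9 and 10 together (0.0947). Exons of the opposite-strand 6430562O15Rik cover 24.2% of its exon bases.

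Ptcd2 held 21.7 ± 0.532 CPM in WT and 20.4 ± 0.743 in FXR-/- and did not pass (log2 fold change -0.09, edgeR adjusted p = 0.236). The ratio of Mrps27 to Ptcd2 was 1.31 ± 0.0612 in WT and 1.22 ± 0.0335 in FXR-/- (SD, n = 5 each). The groups met at the rounded value of 1.25, with no overlap before rounding (log2 difference -0.10, exact two-sided permutation p = 0.00794, adjusted 0.0106). This difference was much smaller than that of the Mrps12 pair. The promoter is shown for the motif of GABP and other ETS factors, known activators of mitochondrial genes, here in capitals on the strand opposite to the search word CCGGAAG. It covers chr13:99344649-99344785, plus strand, and reaches 30 bases past the RefSeq start of Ptcd2.
Mrps27: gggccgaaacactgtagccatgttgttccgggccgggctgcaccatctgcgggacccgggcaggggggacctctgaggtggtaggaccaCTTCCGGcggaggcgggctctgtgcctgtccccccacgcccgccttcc
The match lies 48 bases before the start of Mrps27, and no other searched motif was found in the window.

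Mrps35 and Mrps22, small-subunit proteins that bacteria lack, rose. Mrps35 (chromosome 6, 147042764 to 147073991, plus strand) had 30.3, 28.8, 29.5, 31.3 and 30.6 CPM in WT and 33.8, 37.4, 34.0, 33.2 and 34.3 CPM in FXR-/-. FXR-/- library 9 was above the other 4, and all 5 were above WT. The mean rose 1.15-fold, from 30.1 ± 0.988 to 34.5 ± 1.63 CPM (log2 fold change 0.20, SE 0.05, edgeR adjusted p = 0.0181). Without WT library 4 its adjusted p was 0.0523, and without FXR-/- libraries 9 and 10 together, those with the highest adipocyte marker levels, it was 0.0683 at a log2 fold change of 0.16.

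Mrps22 (chromosome 9, 98588730 to 98601660, minus strand) had 41.5, 42.8, 46.2, 43.4 and 47.3 CPM in WT and 49.2, 50.4, 46.6, 49.4 and 51.4 CPM in FXR-/-. The ranges overlapped, since FXR-/- library 10 lay below WT library 9. The mean went from 44.3 ± 2.41 to 49.4 ± 1.76 CPM (log2 fold change 0.16, SE 0.05, edgeR adjusted p = 0.0444). This was the call nearest to the threshold, and it was lost without any 1 of WT libraries 3, 4, 5 and 6 and FXR-/- libraries 8, 9, 11 and 12 (adjusted p = 0.0544 to 0.108). It was also lost without a filter on low counts (0.06) and without FXR-/- libraries 9 and 10 together (0.0697).

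**Figure D3:**
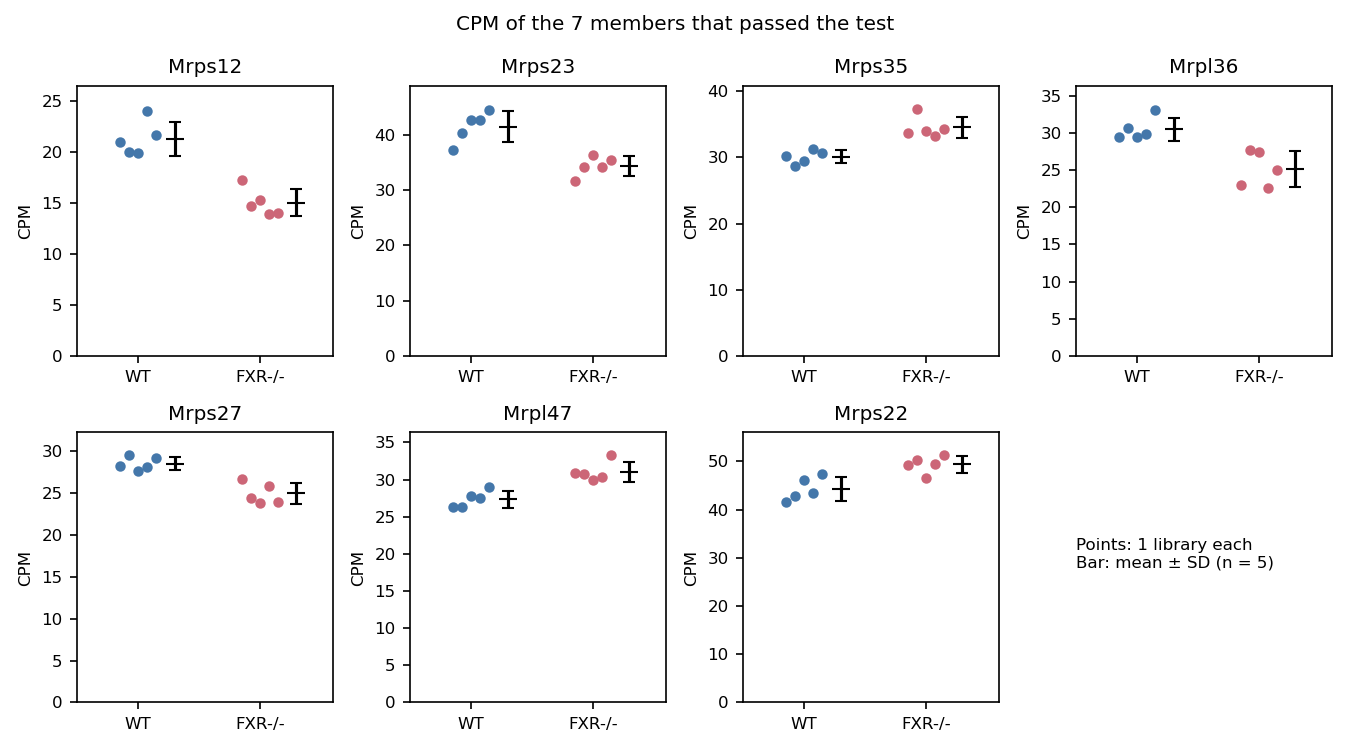
CPM of the 7 called members in each of the 10 libraries, by genotype, with the mean ± SD (n = 5). The groups are separate in 6 panels and overlap in the panel of Mrps22.

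Of the 48 large-subunit genes, Mrpl36 and Mrpl47 were called. Mrpl36 encodes bL36m, a small protein with a bacterial counterpart. The gene is on chromosome 13 (73328513 to 73332178, plus strand). WT libraries held 29.5, 30.6, 29.4, 29.9 and 33.1 CPM and FXR-/- libraries 23.0, 27.8, 27.5, 22.6 and 24.97 CPM. All FXR-/- libraries were below WT, and they spread more widely than WT. The mean fell 1.21-fold, from 30.5 ± 1.53 to 25.2 ± 2.40 CPM (log2 fold change -0.28, SE 0.07, edgeR adjusted p = 0.0213), and the call was lost without WT library 9 or FXR-/- library 11 or 12 (adjusted p = 0.0505, 0.0567 and 0.0501).

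The neighbour of Mrpl36, Ndufs6, encodes a subunit of respiratory complex I, and the annotated exons of the pair overlap by 30 bases. Ndufs6 did not pass, at 28.4 ± 1.96 CPM in WT and 29.7 ± 0.812 in FXR-/- (log2 fold change 0.06, edgeR adjusted p = 0.466). Mrpl36 over Ndufs6 was 1.09, 1.19, 0.998, 1.04 and 1.07 in WT and 0.776, 0.943, 0.884, 0.767 and 0.865 in FXR-/-. The groups did not overlap (log2 difference -0.35, exact two-sided permutation p = 0.00794, adjusted 0.0106). Here as for Mrps12 the ribosomal gene fell relative to its neighbour. This pair too entered because the ribosomal gene had passed, so the p-value is not independent of that call.

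RefSeq places the start of Mrpl36 at another first exon, 2527 bases from that of Ndufs6. The 250 bases before it, chr13:73330759-73331008, plus strand, are shown because a match to the YY1 motif AAGATGGC lies close to the start. Capitals mark that match, 30 bases before the start and on the strand opposite to the search word, and a CCAAT at the far end.
Mrpl36: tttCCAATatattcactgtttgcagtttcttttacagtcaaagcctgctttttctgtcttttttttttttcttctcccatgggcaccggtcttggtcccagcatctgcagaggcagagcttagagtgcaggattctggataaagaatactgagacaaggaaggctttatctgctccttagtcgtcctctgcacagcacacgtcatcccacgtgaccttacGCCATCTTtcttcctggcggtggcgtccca
YY1 matches were found in 4 of 68 member promoters, and the other called member among them was Mrps12, where it lies 199 bases before the start and outside the printed stretch.

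Mrpl47 encodes uL29m, which lies at the exit of the polypeptide tunnel. It was the large-subunit gene that rose (chromosome 3, 32725397 to 32737605, minus strand). WT libraries held 26.3, 26.3, 27.7, 27.5 and 29.04 CPM and FXR-/- libraries 30.9, 30.7, 29.99, 30.3 and 33.3 CPM. The groups did not overlap, and FXR-/- library 12 stood above the other 4. The mean rose from 27.4 ± 1.15 to 31.0 ± 1.30 CPM (log2 fold change 0.18, SE 0.05, edgeR adjusted p = 0.0304). The call was lost without any 1 of WT libraries 3, 4, 5 and 6 and FXR-/- libraries 9, 11 and 12 (adjusted p = 0.0536 to 0.0784), and without FXR-/- libraries 9 and 10 together (0.0563).

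The neighbour Ndufb5, a complex I subunit whose gene shares 616 exon bases with Mrpl47 on the opposite strand, held 53.4 ± 1.90 and 57.3 ± 2.55 CPM and did not pass (log2 fold change 0.10, edgeR adjusted p = 0.135). Mrpl47 over Ndufb5 was 0.513 ± 0.0261 in WT and 0.543 ± 0.0377 in FXR-/- (SD, n = 5 each). The groups overlapped (exact two-sided permutation p = 0.214), and this pair was the one of the 4 in which a difference between the neighbours was not shown. A start within 1 kb on the opposite strand was found for 37 of the 77 members, 33 of them with a protein-coding neighbour. The share over all genes was not computed.

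The subunits were then set side by side. The rate of calls was 2 of 48 (4.17%) for large-subunit names and 5 of 29 (17.2%) for small-subunit names, where 13.9% of all tested genes were called. The small-subunit share, which rests on 5 genes, turned from above to below that of all genes without WT library 4 (2 genes or 6.90%, against 8.55% of all), without FXR-/- library 9 (3 genes or 10.3%, against 10.8%) and without FXR-/- libraries 9 and 10 together (2 genes or 6.90%, against 13.1%). Nothing particular to either subunit is read from these shares. The median log2 fold change was 0.026 for the large and -0.024 for the small subunit, and the median size of the differences was 0.055 and 0.11. Large-subunit genes were above 0 in 32 of 48 cases and small-subunit genes in 13 of 29. Sorting by place in the particle instead of by name gave the same called genes: Mrps30 and Mrps18a sit in the large subunit, and Mrps36 is now known as a part of the oxoglutarate dehydrogenase complex. With these moved, 2 of 50 and 5 of 26 were called. These are counts over few genes and the difference between the subunits was not tested, since members of a list are not replicates.

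Over mice, the genotypes overlapped in the level of both subunits. The mean log2 CPM of the large-subunit genes was 4.94, 4.93, 4.97, 5.01 and 5.03 in WT libraries 3, 4, 5, 6 and 9 and 4.99, 5.01, 5.00, 4.98 and 5.01 in FXR-/- libraries 8 to 12. The small-subunit genes had 4.78, 4.79, 4.82, 4.85 and 4.88 in WT and 4.81, 4.83, 4.81, 4.79 and 4.79 in FXR-/-. The FXR-/- values lay inside the WT range for both subunits, and WT varied more (SD 0.04 for both) than FXR-/- (0.01 and 0.02). Among WT, libraries 3 and 4 were lowest, and library 3 was also the lowest in meiotic markers (mean log2 CPM 4.97, against 5.52 to 6.38 in the other 9). Summed counts of large over small were 1.874 ± 0.0118 in WT and 1.897 ± 0.0238 in FXR-/- (SD, n = 5 each), with ranges of 1.861 to 1.885 and 1.873 to 1.926 that overlap. The balance of the means within a library did not overlap, however. By the values above, the large-subunit mean exceeded the small-subunit mean by more in every FXR-/- library than in every WT library. The SD of this gap averaged 0.0118 within a genotype. The difference in the gap was small and was not tested.

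**Figure D4:**
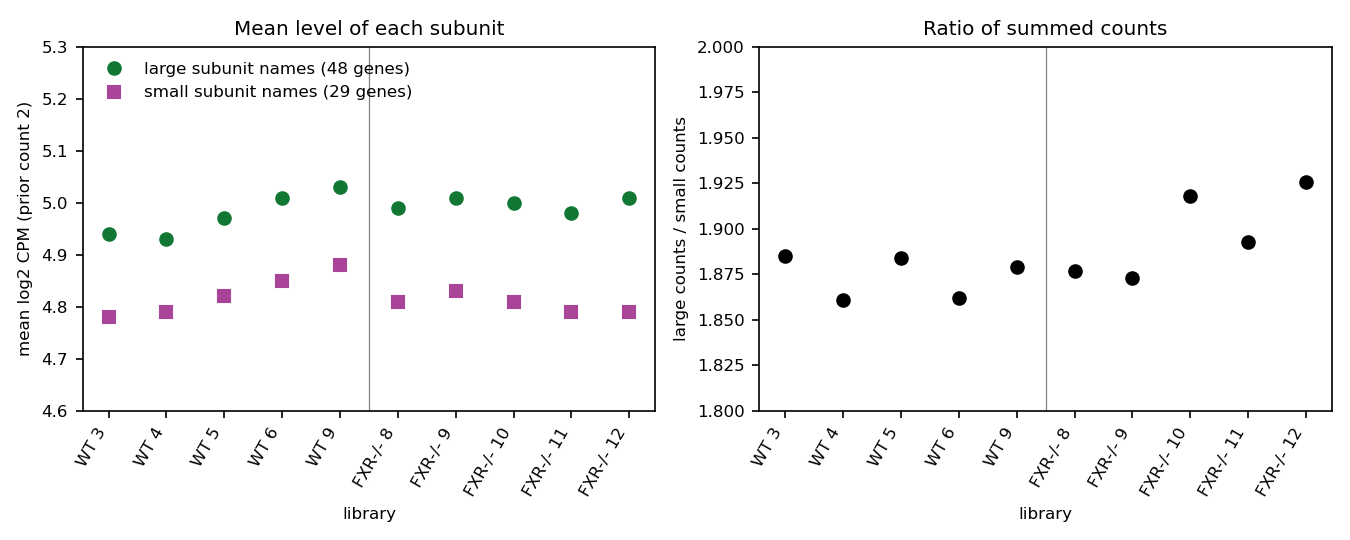
Left, mean log2 CPM of the 48 large-subunit and 29 small-subunit genes in each library; right, the ratio of their summed counts (both axes start above 0). FXR-/- means fall within the WT range of 4.93 to 5.03 and 4.78 to 4.88, and the ratios overlap between 1.873 and 1.885. The gap between the large and the small mean is wider in each FXR-/- library than in each WT library.

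By origin, calls were found among members with a bacterial counterpart and among those without: 3 of 46 or 6.52% (Mrpl47 higher, Mrps12 and Mrpl36 lower) and 4 of 31 or 12.9% (Mrps35 and Mrps22 higher, Mrps23 and Mrps27 lower). Both shares were below the 13.9% of all tested genes. None of the 5 genes of the stalk that recruits translation factors (Mrpl10, Mrpl11, Mrpl12, Mrpl53 and Mrpl54) was called, and their fold changes were of both signs. Of 7 genes at the polypeptide exit site, 1 was called, Mrpl47 (14.3%, beside the same 13.9%). The 5 genes of the central protuberance (Mrpl18, Mrpl38, Mrpl40, Mrpl46 and Mrpl48), where the mitochondrial ribosome holds a structural RNA in place of a 5S rRNA, were all above 0, from 0.05 to 0.09 on the log2 scale, and none passed.

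Mammals have 3 relatives of bacterial S18, which take different places. Mrps18c, the bS18m of the decoding side, held 24.1, 23.5, 23.2, 24.6 and 27.4 CPM in WT and 27.3, 26.1, 27.6, 30.1 and 28.6 CPM in FXR-/-. WT library 9 alone reached into the FXR-/- range, and the log2 fold change was 0.19 (edgeR adjusted p = 0.0569). Leaving out single libraries gave adjusted p-values from 0.0286 (without WT library 9) up to 0.135. In 14 of 18 alternatives Mrps18c was not called. Mrps18b had 15.1 ± 0.800 and 15.2 ± 1.54 CPM, and Mrps18a 26.5 ± 0.534 and 24.9 ± 1.64 CPM (SD, n = 5 each). These last members did not pass (edgeR adjusted p = 0.977 and 0.313).

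Beyond the called genes, the widest differences among members that averaged 1 CPM or more were these. On the large subunit Mrpl33 (bL33m) and Mrpl42 were highest among those not called, at 0.14 and 0.13, and Mrpl34 (bL34m) and Mrpl10 (uL10m, the base of the stalk) lowest, at -0.20 and -0.14 on the log2 scale. Among small-subunit names Mrps18c and Mrps26 (0.17) were highest, and Mrps34 (-0.20) and Mrps36 (-0.14) lowest. Mrps36 is a small-subunit gene by name only. Their edgeR adjusted p-values ran from 0.0569 to 0.25. Mrps34 rests on 5.996 ± 0.379 and 5.22 ± 0.646 CPM. Exons of Mapk8ip3 on the opposite strand cover 63.4% of its exon bases, and those of Nme3 on the same strand 37.0%. Mrps30, once named as a small-subunit protein, had 27.7 ± 1.56 and 30.1 ± 1.26 CPM (log2 fold change 0.12, edgeR adjusted p = 0.136).

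Mrpl53, named after its values were seen, had the highest log2 fold change of all members, 0.46, at the lowest level, 0.378 ± 0.155 CPM in WT and 0.522 ± 0.0723 in FXR-/-. Its 95% interval ran from -0.09 to 1.01, and its groups overlapped (edgeR adjusted p = 0.247). Another gene, Gm42688, covers 88.0% of its exon bases on the same strand, so the reads of Mrpl53 and of that gene cannot be told apart. In all, 31 members share exon bases with another gene, and for 3 (Mrpl53, Mrps34 and Mrps25) this is over 50% of their exon bases. Mrpl42 and Mrpl54 lie on the chromosome of Nr1h4, 6.03 and 8.19 Mb from it, and neither was called.

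Levels between members can be compared per length only. Per kilobase of the principal annotated transcript, the median over the 76 members with an annotated length was 22.7 CPM; Mrpl33 (49.1 ± 3.02 CPM in WT), which has none here, was not ranked. Of the genes ranked, the highest of the large subunit were Mrpl52 (79.0 CPM per kilobase), Mrpl37 (57.6) and Mrpl42 (55.6), and of the small subunit Mrps10 (45.5), Mrps21 (43.8) and Mrps18c (41.2). The order depends on the length chosen: with the union of all exons, Mrpl2, Mrpl54 and Mrpl28 led the large subunit instead. Before division by length, Mrpl37 took the most reads of all members, 86.5 ± 1.75 CPM in WT and 86.1 ± 4.05 in FXR-/-, with an edgeR adjusted p of 0.934. Mrpl52 (34.1 ± 1.47 and 31.9 ± 2.03 CPM), Mrps10 (48.5 ± 2.63 and 44.3 ± 2.61 CPM) and Mrps21 (22.0 ± 1.32 and 20.7 ± 0.839 CPM) did not pass either.

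Motifs known from nuclear genes for mitochondria were found in a larger share of the members' promoters than of all promoters, as a description with no test. Within 250 bases before the RefSeq start, on either strand, the ETS and GABP motif CCGGAAG was found in 17 of 68 members (25%) and in 7.83% of 27025 promoters. The motif of NRF1, a regulator of nuclear genes for mitochondria, spelled GCGCA, any 1 base and GCGC, was in 10 (14.7%) against 4.23%, and the YY1 motif in 4 (5.88%) against 1.83%. At least 1 of the 3 was in 29 (42.6%) against 12.8%. The 27025 promoters include those of genes not tested here, whereas all members were tested. A share over tested genes alone was not computed. The inverted repeat known for FXR, AGGTCA and TGACCT with any 1 base between them, was in 0 of 68 and in 2 of all promoters. The median log2 fold change of members with and without a match was 0.029 and 0.0048 for ETS, 0.0044 and 0.026 for NRF1, and -0.15 (4 genes) and 0.021 for YY1. The order was not the same for the 3 motifs. The called genes with a match were Mrps22 and Mrps27 (ETS) and Mrps12 and Mrpl36 (YY1).

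The rest of the mitochondrial translation system was also near its wild-type level. Ribosomal proteins that carry other names, 6 genes, had no call and a median log2 fold change of 0.03. The most abundant of them, Dap3 (mS29, a GTP-binding protein of the small subunit), had 119 ± 5.46 and 120 ± 6.10 CPM, and Ptcd3 (mS39) 90.3 ± 2.30 and 96.4 ± 2.79 CPM (edgeR adjusted p = 0.89 and 0.102). Of 29 genes for ribosome assembly and rRNA modification 3 were called (10.3%, against 13.9% of all tested genes). Mettl17, needed for assembly of the small subunit, rose (log2 fold change 0.28, edgeR adjusted p = 0.0373), as did Malsu1, which keeps an unfinished large subunit from joining (0.23, 0.0407). Mpv17l2, an assembly factor of the inner membrane, fell (-0.25, 0.0411). These calls were not stable: of 18 alternatives, 8 ended the call of Mettl17 (adjusted p up to 0.121), 8 that of Malsu1 (up to 0.101) and 11 that of Mpv17l2 (up to 0.103), with 7, 6 and 7 of them leaving out 1 library.

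Among 14 genes listed as translation factors, Mss51, named after a yeast activator of cytochrome oxidase translation, rose at a low level of 3.84 ± 0.343 to 4.88 ± 0.227 CPM (log2 fold change 0.35, edgeR adjusted p = 0.0259). Whether the mouse gene acts in translation was not examined here. Gfm1, the elongation factor that moves the ribosome along, fell (-0.18, 0.0352). The call of Mss51 was lost in 5 of 18 alternatives (adjusted p up to 0.0721), and that of Gfm1 in 11 (up to 0.0942), among them library totals alone, no filter and 9 of the 10 settings without 1 library. Of 19 mitochondrial tRNA synthetase and amidotransferase genes, Pet112 fell, a subunit of the enzyme that makes glutaminyl-tRNA (-0.28, 0.0154), a call kept in all 18. None of 20 genes for mitochondrial transcription and its nuclear regulators was called, including Pprc1 (208 ± 14.5 and 224 ± 18.5 CPM) and Gabpb2 (174 ± 3.17 and 177 ± 5.49 CPM), the most abundant. Of 18 import and proteostasis genes, Timm23, the channel of the inner membrane, and Timm44, of its motor, rose (0.19 and 0.15, edgeR adjusted p = 0.0218 and 0.0445). These calls were lost in 5 and 10 of the 18 alternatives (adjusted p up to 0.0684 and 0.115). The shares called were 14.3% of genes listed as translation factors, 5.26% of synthetase and amidotransferase genes and 11.1% of import genes. Over all tested genes the share was 13.9%, and nothing particular to these lists is read from it.

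The transcripts that these ribosomes carry or translate differed more. Of the 14 mitochondrially encoded genes tested, all were above 0, with a median log2 fold change of 0.26, and 5 passed: mt-Atp8 of ATP synthase (0.31, edgeR adjusted p = 0.0102), mt-Nd6 (0.28, 0.0125) and mt-Nd5 (0.26, 0.0211) of complex I, mt-Co1 and the small rRNA mt-Rnr1, whose call was lost in 8 alternatives (adjusted p up to 0.123). The share called was 35.7%, against 13.9% of all tested genes. The genotypes overlapped in every one of the 14 genes. In mt-Atp8, FXR-/- library 8 was at 1192 CPM, inside the WT range of 1066 to 1217, and the other FXR-/- libraries were at 1401 to 1558 CPM. The rRNAs of the mitochondrial ribosome had 170 ± 15.1 and 203 ± 19.8 CPM (mt-Rnr1, edgeR adjusted p = 0.0356) and 240 ± 27.7 and 296 ± 36.1 CPM (mt-Rnr2, 0.0519). Without FXR-/- libraries 9 and 10 together 1 of the 14 passed, and without FXR-/- library 8 alone 10 passed.

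Proteins of the cytosolic ribosome are given as the nearest comparison. Of 73 tested genes listed by such names, 27 (37.0%, against 13.9% of all tested genes) rose and 0 fell, with a median log2 fold change of 0.11. The strongest calls were Rpl10a (189 ± 3.65 to 267 ± 8.63 CPM), Rps15a and Rpl26. For the mitochondrial ribosome the same figures were 3 higher and 4 lower of 77, and 0.014. The difference between the lists was not tested. The name rule of the cytosolic list left out genes named Rpl and a single digit, such as Rpl5, which was itself called. Its figures therefore do not cover the whole cytosolic ribosome. Genes of cytosolic ribosomal proteins have many processed copies in the genome, and how reads with several alignments were counted is not given in the sources used here.

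**Figure D5:**
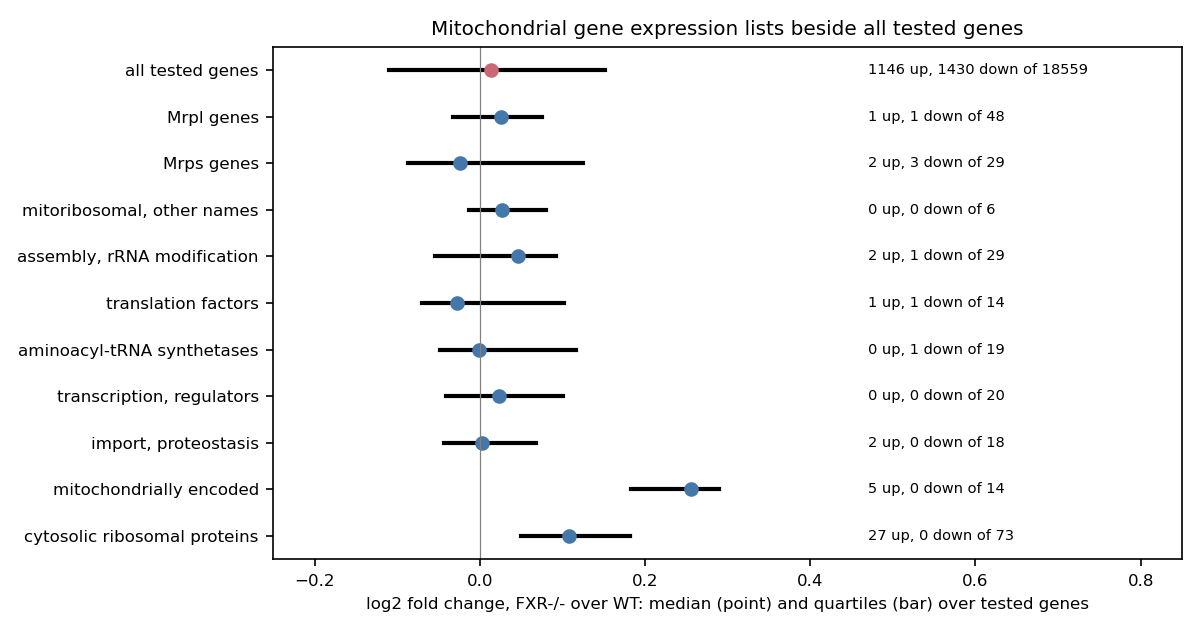
Median (point) and quartiles (bar) of the log2 fold change in each list, with the number of genes called higher and lower on the right. Members of both subunits centre near all tested genes, and the mitochondrially encoded genes centre at 0.26. The cytosolic list lacks genes named Rpl and a single digit.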

How the data were processed

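RNA was measured in testes of 10 mice, 5 per genotype, grouped by the genotype label. The authors deposited raw counts per gene, whole numbers per library. Per the submitters' processing notes, FastQC 0.10.1, CASAVA, Bowtie, TopHat2 2.0.10, Bowtie2 2.1.0 and the build mm10 were used. How reads were counted, with which annotation and strand setting, is not given in the sources used here. Normalized values in the same table had lost their decimal marks and were not used.

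Counts were filtered with filterByExpr (18559 genes kept), scaled by TMM and tested with edgeR 4.0.16 in R 4.3.3 (two-sided quasi-likelihood test with genotype as the only term; p-values adjusted over all tested genes by Benjamini-Hochberg; call under 0.05). The test was checked on simulated counts. Mean log2 CPM used a prior count of 2. Replicates are individual mice, per the series' design text.

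Positions, lengths and exon overlaps came from GENCODE M21 on GRCm38, the build of mm10, which held 76 of the 77 members by identifier (not Mrpl33), and promoters from RefSeq on GRCm38.p6 (68 members). Depth was 32330029 to 39655170 counts per library.

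Members and lists were chosen with earlier results of these data known. Members with values are those called, the 3 most abundant per kilobase of each subunit, the 2 largest rises and falls not called per subunit (mean of at least 1 CPM), the 3 Mrps18 genes, Mrps30 and Mrps36. In other lists up to 3 called genes, or else the 2 most abundant, were taken. Alternatives were RLE, upper-quartile and no scaling, no filter, DESeq2 1.42.0, limma-voom (limma 3.58.1), leaving out each library or the genes of chromosomes X, Y and M, and subunits sorted by structure. Leaving out FXR-/- libraries 9 and 10 together was added after seeing the data.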

Additional observations from a re-analysis of the deposited data

Results flagged for a closer look

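In 4 of the 58 groups of 5 libraries that were checked (both genotypes of the named genes and summaries), 1 library stood apart from the other 4 by its gap relative to the whole range, and chance alone gives about 1 in 20 groups. Mrps35 was at 37.35 CPM in FXR-/- library 9, above 33.22 to 34.34 in the other FXR-/- libraries. Mrpl47 was at 33.29 CPM in FXR-/- library 12, above 29.99 to 30.91. Mrps26 was at 27.9 CPM in WT library 3, below 32.34 to 34.01 in the other WT libraries. Mrps18a was at 22.05 CPM in FXR-/- library 11, below 25.33 to 26.02. The 4 outlying values came from 4 different libraries.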

How the results depend on the processing

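Of 18 alternatives, most kept the members' median log2 fold change near that of all genes. With library totals alone it was 0.0498 beside 0.0502 over all tested genes, a shift common to all genes, and 11 members were called, 8 of them higher and 4 of the large subunit. Upper-quartile scaling and DESeq2 each gave 5 higher calls, and without a filter 3 small-subunit genes were called. Without FXR-/- libraries 9 and 10 together, 3 members were called, 0 higher, 1 large and 2 small, and the large minus small median was 0.0308 (main value 0.0494). Leaving out single libraries gave 3 to 7 calls, 0 to 5 higher, 2 to 4 lower, 0 to 2 large, 2 to 6 small and a large minus small median of 0.0319 to 0.0562. The 7 calls became 3 without WT library 4 or FXR-/- library 12, and 4 without FXR-/- library 9 or 11. Calls over all genes fell in the same settings, from 2576 to 1601, 1635, 2019 and 1427.

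Lists moved likewise. With upper-quartile scaling, library totals and DESeq2, higher calls were 2, 3 and 2 among large-subunit genes with a bacterial counterpart, 1, 3 and 1 among such small-subunit genes, 1, 1 and 1 in the bS18 family, 1, 1 and 1 among tRNA synthetases (also 1 without chromosomes X, Y and M) and 8, 9 and 9 among mitochondrially encoded genes. Library totals gave 1 higher call among ribosomal proteins with other names. For assembly genes, lower calls were 0 under upper-quartile scaling, library totals, no filter and without libraries 9 and 10, and higher calls 1 without a filter. Lower calls of translation factors were 0 with library totals and without a filter. For import genes, 1 was higher without a filter and 1 lower with DESeq2. Without libraries 9 and 10, higher calls were 0 among large-subunit genes with a bacterial counterpart, exit-site, assembly, translation factor and import genes, and 1 among mitochondrially encoded genes. Leaving out single libraries gave 0 to 1 (higher) and 0 to 1 (lower) for large-subunit genes with a bacterial counterpart, 0 to 2 higher for such small-subunit genes, 0 to 1 higher for exit-site and bS18 genes, 0 to 2 higher and 0 to 1 lower for assembly, 0 to 1 both ways for translation factors, 0 to 2 higher for import and 3 to 10 higher for mitochondrially encoded genes. The cause was not tested.

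Some members that were not called changed sign. Mrpl37 was at 0.00969 (upper quartile), 0.0305 (library totals) and -0.0298 to 0.0122 without single libraries (0.0062 and 0.0122 without FXR-/- libraries 10 and 11). Mrps18b was at -0.00266 (DESeq2), -0.00256 (limma-voom), -0.0009 without libraries 9 and 10, and -0.0483 to 0.039 without single libraries (below 0 in 5 of 10, at -0.00339, -0.0126, -0.0107, -0.0483 and -0.0205).

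No paired analysis was possible because the titles of the groups share only the number 9. Mrpl53 and Mrps34 had the lowest levels of the members, which limits what can be said of them. Over 50% of their exon bases are shared with other genes. Low depth and reads that fall in shared exons cannot be told apart here.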
